A study of Rattus norvegicus with 241 samples.

Results

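The genes of MHC class II antigen presentation were followed through every bulk and single-cell table of a study of rat mammary gland in which TGFβ receptor 1 was inhibited with LY2157299 (TGFBRi). The 6 genes were chosen by name, with symbols matched without regard to case: Cd74, RT1-Ba, RT1-Bb, RT1-Da, RT1-Db1 and Ciita, written in capitals here as CD74, RT1-BA, RT1-BB, RT1-DA, RT1-DB1 and CIITA. All 6 were present in each of the tables, which hold between 12693 and 18237 genes. There were 241 samples in 8 experiments: 202 bulk RNA-seq libraries of sorted cells from 5 experiments and 39 single-cell libraries from 3.

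All rats were females. TGFBRi or vehicle was given by mouth at 75 mg per kg, 2 times per day. Young ACI rats (an inbred strain) were virgins, 35 days old at the first of 10 days of dosing, and were sampled 0, 7 and 14 days after the last dose, with 3 TGFBRi and 3 vehicle rats at each time. Young Sprague-Dawley (SD) rats, which are outbred, were virgins whose 10 days of dosing began at 24 days of age, and 4 rats of each treatment were sampled at day 0; the labels call the TGFBRi rats D7N and D7R weak and D8N and D8R strong responders, and no split by this label was made. Adult ACI rats of 18 to 24 weeks were virgin or parous, were dosed for 10 days and were sampled at day 0, with 4 rats in each of the 4 groups. Their leukocytes were sequenced from 4 virgin vehicle, 3 virgin TGFBRi, 2 parous vehicle and 4 parous TGFBRi rats. In the carcinogen experiment, virgin SD rats were dosed for 10 days from 21 days of age. They then received N-nitroso-N-methylurea (NMU) at 50 mg per kg and were killed 87 days later. This gave 3 tumor-bearing vehicle, 3 tumor-bearing TGFBRi and 3 tumor-free TGFBRi rats. In the estradiol (E2) experiment, virgin ACI rats had 21 days of dosing that began at 38 days of age, and an implant of 37 mg estradiol was placed at 60 days of age in some of them. Those without E2 received an empty implant. The labels give the day of sampling in this experiment as variable. The paper states that rats in poor health from pituitary adenomas were killed before the endpoint. The luminal and leukocyte libraries of that experiment came from 4 vehicle and 3 TGFBRi rats without E2, all tumor-free, and from 4 tumor-bearing vehicle, 2 tumor-bearing TGFBRi and 4 tumor-free TGFBRi rats with E2. No vehicle rat with E2 was tumor-free, so E2 and tumor status cannot be told apart in vehicle rats. Basal cells (CD24+CD29high), luminal cells (CD24+CD29low) and CD45+ leukocytes were sorted from the gland, and CD45+ and EPCAM+ cells from the NMU tumors. The luminal gate holds luminal progenitors and mature luminal cells together, so luminal progenitors were set apart only in the single-cell data. Those were sorted basal and luminal cells of 3 TGFBRi and 3 vehicle young ACI rats, sorted basal and luminal cells of 6 TGFBRi and 3 vehicle young SD rats, and whole glands of 6 TGFBRi and 3 vehicle young SD rats. All single-cell rats were dosed for 10 days and sampled at day 0 after the last dose.

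MHC class II molecules are pairs of an α and a β chain that carry peptides from endocytosed proteins to the cell surface, where CD4+ T cells read them. In the rat, RT1-BA and RT1-BB encode the α and β chains of RT1.B, the counterpart of mouse I-A, and RT1-DA and RT1-DB1 encode those of RT1.D, the counterpart of mouse I-E. CD74 encodes the invariant chain, which occupies the peptide groove until the molecule reaches the endosome. CIITA is the transactivator that switches the set on, acting through RFX, CREB and NF-Y factors bound next to each other on the promoters. Dendritic cells, B cells and macrophages express the set constitutively, and interferon γ can induce it in epithelial cells.

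The promoter stretches below are shown because the 4 chain genes moved together across cell types, and NF-Y and RFX are the factors known to hold class II promoters in common. Each is bases 150 to 31 before the start site in RefSeq's GRCr8 annotation, on the gene's own strand, at chr20:4576907-4577026 (plus strand) for RT1-BA, chr20:4604149-4604268 (minus strand) for RT1-BB, chr20:4515265-4515384 (plus strand) for RT1-DA and chr20:4560193-4560312 (minus strand) for RT1-DB1. Capitals mark CTGATTGG, the letters around the NF-Y box of class II promoters, and TAGCAAC, letters of the X box to which RFX binds.
RT1-BA: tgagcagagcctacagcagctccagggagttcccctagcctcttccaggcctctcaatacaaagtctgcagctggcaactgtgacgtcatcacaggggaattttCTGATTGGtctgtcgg
RT1-BB: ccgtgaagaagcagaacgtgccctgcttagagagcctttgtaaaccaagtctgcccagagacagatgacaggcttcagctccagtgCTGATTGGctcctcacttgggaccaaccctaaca
RT1-DA: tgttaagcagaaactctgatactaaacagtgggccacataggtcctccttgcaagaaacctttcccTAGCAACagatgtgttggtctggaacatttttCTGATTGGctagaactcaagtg
RT1-DB1: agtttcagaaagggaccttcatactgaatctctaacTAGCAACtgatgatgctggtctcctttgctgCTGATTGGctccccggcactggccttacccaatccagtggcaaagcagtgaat

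Searched on both strands of the 250 bases before each start, CTGATTGG lay in the promoters of all 4 chain genes, beside 3.19% of 33469 RefSeq promoters. TAGCAAC lay in those of RT1-DA, RT1-DB1 and CD74, beside 2.88% of promoters. Both RT1.D genes held the 2 motifs together, which 0.0896% of promoters did, at distances of 32 bases in RT1-DA and 31 bases in RT1-DB1. The shorter ATTGG, which CTGATTGG contains, lay in all 5 promoters that could be matched and in 34% of promoters. CIITA had no entry in the promoter table. A match of letters is a description of these windows and not a measurement of binding.

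Bulk libraries held 4194912 to 52314784 reads on genes, with a median of 20100223, and the median cell held 7274 UMIs (unique molecular identifiers) in the sorted ACI, 7394 in the sorted SD and 3373 in the whole gland tables. Marker genes followed the labelled gates, apart from the libraries named here. The summed level of 8 leukocyte markers was 1183 to 10569 counts per 1000000 counts (CPM) in gland CD45+ libraries and 39 to 336 CPM in the luminal libraries of the same rats. In the NMU experiment, the basal library of rat D1R carried CD74 at 8256 CPM against 181 to 400 CPM in the other 8 basal libraries. The CD45+ library of rat D2N of that experiment had summed basal markers of 18821 CPM, against 524 to 2030 CPM in the other 8, and CD74 at 8773 CPM. These 2 libraries were close to each other across genes (r = 0.990, chi-square per degree of freedom 10.3), although their labels name different rats and gates. Between any pair of libraries of 1 gland gate (basal, luminal or CD45+) of that experiment the chi-square value was 34.7 or more. In the adult experiment, the basal and luminal libraries of virgin vehicle rat N1N held CD74 at 1483 and 799 CPM, against 158 to 843 CPM and 25.7 to 185 CPM in the other rats, and its CD45+ library held summed luminal markers of 10121 CPM against 737 to 2271 CPM in the others. Over the whole gland libraries, 6127 cell barcodes occurred in more than 1 library, and 35 and 216 did in the sorted ACI and sorted SD tables. The cell types below are rebuilt from fixed markers, with the class II genes left out of the clustering, and are called by the class they resemble.

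In whole glands, class II transcripts were concentrated in dendritic-like, B-like and macrophage-like cells. CD74 reached a median over 9 rats of 376 UMIs per 10000 UMIs in dendritic-like cells (344 to 501), of 260 in B-like cells (197 to 280) and of 147 in macrophage-like cells (102.95 to 181). Luminal progenitor-like cells had a median of 1.13 (0.532 to 7.95). In every one of the 9 rats CD74 was higher in each of these 3 leukocyte classes than in luminal progenitor-like cells, by a median of 349-fold, 196-fold and 124-fold. The 3 leukocyte classes held 1837, 19596 and 2771 cells, and the luminal progenitor-like class 11398.

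**Figure D1:**
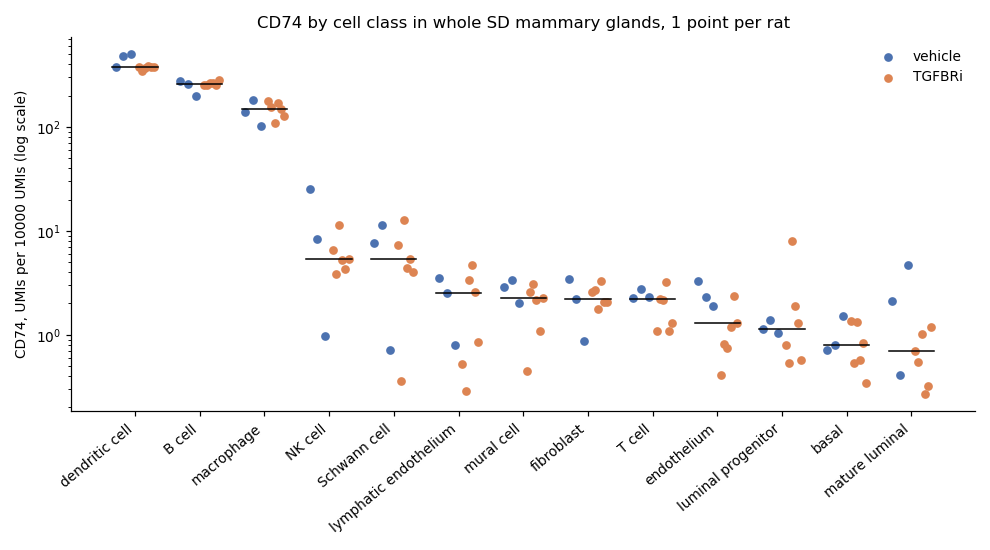
CD74 in UMIs per 10000 UMIs (log scale) in 13 cell classes of whole SD glands, 1 point per rat (3 vehicle, 6 TGFBRi) and a line at the median of the 9 rats. Dendritic-like, B-like and macrophage-like cells lie above 100 in every rat; the luminal progenitor-like, basal-like and mature luminal-like classes are at the right, with medians of 1.13, 0.799 and 0.694.

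The 4 chain genes followed the same order of classes. RT1-BA, the α chain of RT1.B, had medians of 101.07 UMIs per 10000 in dendritic-like, 56.9 in B-like and 33.4 in macrophage-like cells and of 0.186 in luminal progenitor-like cells. For its β chain RT1-BB the same medians were 122, 63.5, 35.9 and 0.163. RT1-DA had medians of 160, 105.19, 56.8 and 0.223, and RT1-DB1 of 137, 76.5, 52.6 and 0.239. The transactivator CIITA was detected at 0.342 UMIs per 10000 in dendritic-like, 0.391 in B-like and 0.0456 in macrophage-like cells and at 0.00186 in luminal progenitor-like cells, so its order of dendritic-like and B-like cells was the other way round. Classes were compared as a description, with no test between them, because the cells that define a class are those in which it is measured.

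Below these 3 classes came NK-like cells (median CD74 5.37 UMIs per 10000, 0.967 to 25.5) and Schwann-like cells (5.33), and then classes whose ranges overlapped: lymphatic endothelial-like (2.497), mural-like (2.26), fibroblast-like (2.23, 0.876 to 3.45), T-like (2.21, 1.09 to 3.19), endothelial-like (1.28), luminal progenitor-like (1.13), basal-like (0.799) and mature luminal-like cells (0.694). Luminal progenitor-like cells had more CD74 than fibroblast-like cells in 2 of 9 rats, than T-like cells in 2, than endothelial-like cells in 3, than mature luminal-like cells in 5 and than basal-like cells in 7. Among the cells, a median of 16.1% of luminal progenitor-like cells held a CD74 UMI. Thinned to 1000 UMIs a cell, that share was 6.07%, beside 5.26% of fibroblast-like and 5.33% of endothelial-like cells, which are not professional antigen-presenting cells, 9.30% of T-like cells, 67.1% of macrophage-like, 98.5% of dendritic-like and 100% of B-like cells. Median depths were 3137 UMIs in luminal progenitor-like, 8879 in fibroblast-like, 2777 in endothelial-like and 2538 in B-like cells. The median thinned share in luminal progenitor-like cells was thus close to those of fibroblast-like and endothelial-like cells. Over the 9 rats, 22.3% to 62.1% of luminal progenitor-like cells with a CD74 UMI also held a chain UMI, against 3.87% to 14.9% of the cells without one. How much of the share comes from free RNA was not tested.

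Rat ly4, which had received TGFBRi, was the exception. Its luminal progenitor-like cells held CD74 at 7.95 UMIs per 10000, and 33.5% of them had a CD74 UMI after thinning, against 3.43% to 9.70% in the other 8 rats. In 28.1% of these cells there were 5 or more CD74 UMIs, and of the cells with a CD74 UMI 62.1% also held a UMI of 1 of the 4 chains, against 9.80% of the cells without one. The 8 leukocyte markers summed to 0.416 UMIs per 10000 in its luminal progenitor-like cells, within the range over rats of 0.193 to 0.637, and with every cell that held a leukocyte marker UMI removed CD74 was at 7.38 per 10000.

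In sorted glands CD74 levels were lower in all 3 epithelial classes, and mature luminal-like cells had the highest median. From these tables the authors had removed cells with a Ptprc read or with fewer than 2 keratin reads. In the sorted ACI rats, the median CD74 level was 0.0664 UMIs per 10000 in luminal progenitor-like, 0.0773 in mature luminal-like and 0.0665 in basal-like cells, and luminal progenitor-like cells were higher than basal-like in 3 of 6 rats and higher than mature luminal-like in 3 of 6. In the sorted SD rats the medians were 0.344, 0.424 and 0.262, with luminal progenitor-like cells higher than basal-like in 7 of 9 rats and higher than mature luminal-like in 5 of 9. By rat, CD74 in the luminal progenitor-like cells of the vehicle rats was 0.191 (SD1), 0.462 (SD2) and 0.242 (SD3) UMIs per 10000. The TGFBRi rats held 0.113 (SD9), 0.344 (SD10), 0.739 (SD11), 4.36 (SD12), 0.889 (SD13) and 0.139 (SD14). Rat SD12 stood far above the rest, and 27.8% of its thinned luminal progenitor-like cells had a CD74 UMI. Of its cells of this class 2071 lay in cluster 7, where CD74 was at 4.48, and the few cells of SD11 (24) and SD13 (33) in that cluster were at 4.80 and 9.88. In cluster 5 the 83 cells of SD12 were at 1.28, above the other rats there (0.156 to 0.682). In luminal clusters outside this class, SD12 was at 4.02 in cluster 15, against 0.354 in SD11 and 0.614 in SD13. In cluster 19 it was at 2.71, against 0.376 in SD11. Other rats were higher in clusters 8, 17 and 23, where SD12 was at 0.223, 3.64 and 0.193. Of the luminal progenitor-like cells of SD12 with a CD74 UMI, 60.3% held a chain UMI, against 7.48% of those without. That was not particular to SD12: over the other 8 sorted SD rats the shares were 40% to 65.3% against 1.42% to 4.57%. Leukocyte markers were at 0.272 UMIs per 10000 in these cells, within the range over rats of 0.115 to 0.334, and CD74 without cells holding a leukocyte marker UMI was 4.09. The rats of the whole gland tables are not tied by the labels to those of the sorted tables.

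**Figure D2:**
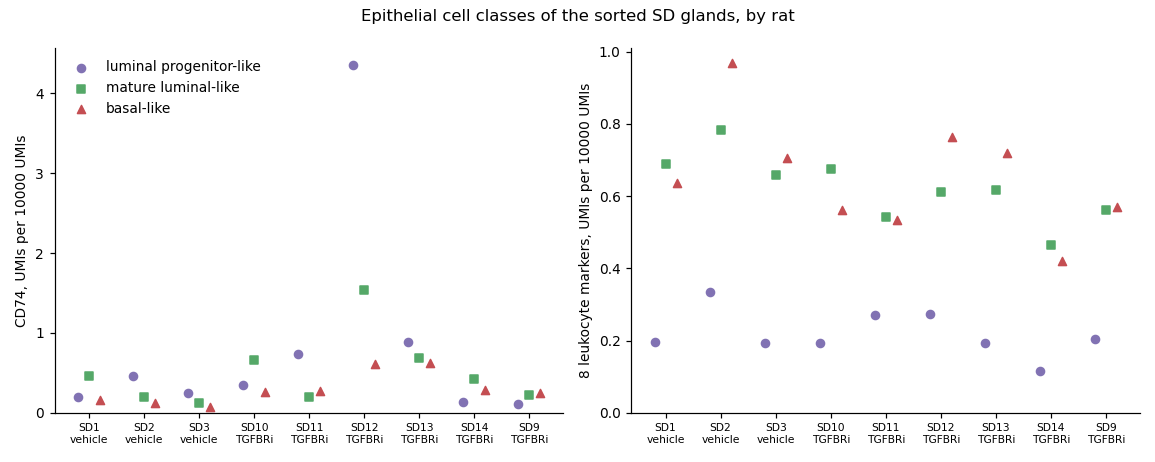
CD74 (left) and the sum of 8 leukocyte markers (right), both in UMIs per 10000 UMIs, in 3 epithelial cell classes of each sorted SD rat (3 vehicle, 6 TGFBRi). The luminal progenitor-like cells of SD12 reach 4.36 for CD74 while their leukocyte markers (0.272) lie within the range of the other rats.

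Bulk libraries allowed leukocytes and luminal cells of the same rats to be tested against each other, and the 6 class II genes were higher in CD45+ cells in all 5 experiments (limma on log2(CPM + 1), Benjamini-Hochberg adjusted p over all genes, called at 0.05). The fit did not pair the libraries of a rat. With the rat as a block all 6 were called in each experiment as well. In the young ACI rats (18 rats), CD74 was at 39345 ± 11085 CPM (SD) in CD45+ libraries, from 28154 to 76107, and at 89.2 ± 43.3 CPM in luminal libraries, from 29.5 to 194, a difference of 8.89 on the log2 scale (SE 0.17, adjusted p = 3.47e-27). RT1-BA was at 6011 against 11.7 CPM (9.15 on the log2 scale), RT1-BB at 5605 against 7.20 CPM (9.61), RT1-DA at 8702 against 12.4 CPM (9.60) and RT1-DB1 at 7285 against 11.9 CPM (9.37). The transactivator was far less abundant in the libraries, with CIITA at 38.2 ± 27.4 CPM in CD45+ and 0.958 ± 0.933 CPM in luminal cells (4.23, SE 0.19, adjusted p = 4.43e-18). In bulk libraries a smaller number of class II-positive cells and less class II RNA in each cell cannot be told apart.

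The other experiments gave the same direction with smaller differences in some. In young SD rats (8 rats) CD74 was at 21930 ± 6608 CPM in CD45+ and 220 ± 123 CPM in luminal cells (6.80 on the log2 scale), and in adult ACI rats (13 rats) at 33811 ± 11593 against 113 ± 207 CPM (9.06). In the NMU rats (9 rats) it was at 35356 ± 13585 against 307 ± 325 CPM (7.11), and in the E2 experiment (17 rats) at 19244 ± 5812 against 583 ± 670 CPM (5.83). Luminal CD74 thus spanned a wider range in the E2 rats, from 60.3 to 2345 CPM, than in the young ACI rats. CIITA was higher by 4.53 on the log2 scale in young SD, 4.07 in adult, 2.72 in NMU and 3.86 in E2 rats. All 6 genes were called higher in each experiment, in which 26.4% (young ACI), 31.3% (young SD), 39.7% (adult), 24.6% (NMU) and 45.8% (E2) of all genes tested were. CD45+ and luminal libraries did not overlap for 6, 5, 6, 5 and 6 of the genes, in the same order, and for 6.07%, 11.8%, 10.2%, 7.28% and 12.4% of all genes tested. The gene that did overlap, in the young SD and NMU rats, was RT1-BB.

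**Figure D3:**
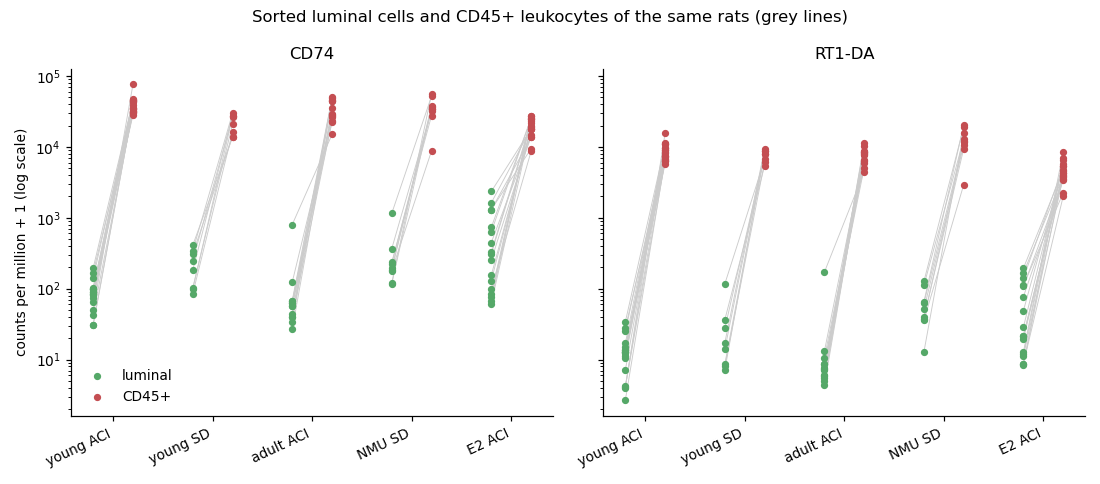
CD74 (left) and RT1-DA (right) in luminal and CD45+ libraries of the 5 bulk experiments, as CPM + 1 on a log scale, with 1 point per library and grey lines joining the libraries of 1 rat. Every line rises from luminal to CD45+ cells, and the luminal points spread most in the E2 rats, from 60.3 to 2345 CPM for CD74.

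The accessory class II genes shared this pattern. RT1-DOA and RT1-DOB form the chaperone that restrains peptide loading in B cells, RT1-DMA and RT1-DMB the one that loads peptides, and RT1-DB2 and RT1-HA are further chain-like genes of the region. Of the 6 accessory genes, 3 of 3 tested were higher in CD45+ than in luminal cells in young ACI, young SD and NMU rats, 5 of 5 in adult rats and 6 of 6 in E2 rats. In the young ACI rats RT1-DOA was at 149 against 0.344 CPM (6.64 on the log2 scale) and RT1-DOB at 211 against 0.494 CPM (7.12). In the adult rats RT1-DMA was at 13.3 against 0.328 CPM (3.33) and RT1-DMB at 7.60 against 0.216 CPM (2.79). Counts of these genes and of the 4 chains are uncertain to the extent that reads of near-identical class II copies were split or dropped when the authors counted them.

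Of the genes that work around class II, the co-stimulatory molecules moved with it in every experiment. All 5 co-stimulatory genes tested, among them CD86 and CD40, were higher in CD45+ cells in all 5 experiments. In young ACI rats CD86, a ligand of CD28 on T cells, was at 119 against 0.202 CPM (6.45). Of the processing genes, which cut antigens and the invariant chain, 5 of 10 were higher and 2 lower in young ACI rats, 4 and 2 of 9 in young SD, 4 and 2 of 9 in adult, 5 and 0 of 9 in NMU and 5 and 4 of 10 in E2 rats. CTSS, the protease that trims the invariant chain in these cells, was higher in all 5, while CTSL, which does so in thymic epithelium, was lower in 4 and not called in the NMU rats. The RFX, NF-Y and CREB1 genes were higher in 1 of 6 and lower in 2 of 6 in young ACI, 4 and 1 of 6 in young SD, 5 and 0 of 7 in adult, 1 and 0 of 6 in NMU and 7 and 0 of 7 in E2 rats. Among interferon γ genes, 7 of 8 were higher in young ACI, young SD, NMU and E2 rats and 8 of 8 in adult rats, with IFNGR2 lower in young SD and E2 rats. Class I genes were higher in 6 of 9, 2 of 8, 2 of 9, 4 of 8 and 7 of 9 in the order young ACI, young SD, adult, NMU and E2. Over all genes tested the median difference lay between -0.08 and 0.29 on the log2 scale, beside medians of 9.26, 7.15, 9.22, 7.31 and 6.28 over the 6 class II genes.

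RT1-BB split the outbred SD rats while its partner RT1-BA did not. In the CD45+ libraries of the young SD rats RT1-BB was at 2269 (D7N), 1714 (D7R) and 2146 (D8R) CPM in 3 TGFBRi rats and at 1272 CPM in the vehicle rat C7R. In the other 4 rats it was at 5.85 (D8N, TGFBRi), 9.14 (C6N), 7.79 (C6R) and 5.60 (C7N) CPM. RT1-BA ranged only from 2440 to 4363 CPM over these 8 libraries. RT1-BB reads came to 42.9% to 54.6% of RT1-BA reads in the first 4 rats and to 0.195% to 0.293% in the other 4. This percentage is used as an index between libraries and not as a ratio of the 2 transcripts, since reads depend on gene length. Both kinds of rat occurred under both treatments, with 3 of 4 TGFBRi rats and 1 of 4 vehicle rats in the first set.

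Among the NMU rats the same split appeared in several libraries of 1 rat. In C5R (vehicle) RT1-BB came to 0.242% of RT1-BA reads in gland CD45+, 0% in basal, 0.286% in luminal, 0.159% in tumor CD45+ and 0.321% in tumor EPCAM+ cells. For D2N (TGFBRi) the values were 1.29%, 0.461%, 0.223%, 0.189% and 6.97%. The gland CD45+ libraries of the other 7 rats lay between 37.2% and 89.2%. In rat D3R the luminal library had no RT1-BB read beside 295 RT1-BA reads, although its CD45+, basal, tumor CD45+ and tumor EPCAM+ libraries stood at 58.9%, 43.5%, 36.3% and 53.2%. The young SD luminal library of C6N stood at 34.9% while the CD45+ library of that rat was at 0.293%. The NMU basal library of D1R, already named for its likeness to the CD45+ library of D2N, stood at 1.34% (359 of 26801 reads), against 55.3% in the CD45+ and 38.9% in the luminal library of D1R. In D8N of the young SD rats the basal library stood at 15.9%, on 7 RT1-BB beside 44 RT1-BA reads, against 0.227% in CD45+ and 0% in luminal cells. These 4 libraries went against others that carry their rat's name. Results that rest on the first 3 were also computed without them. In the ACI rats every CD45+ library lay between 58.2% and 196%.

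**Figure D4:**
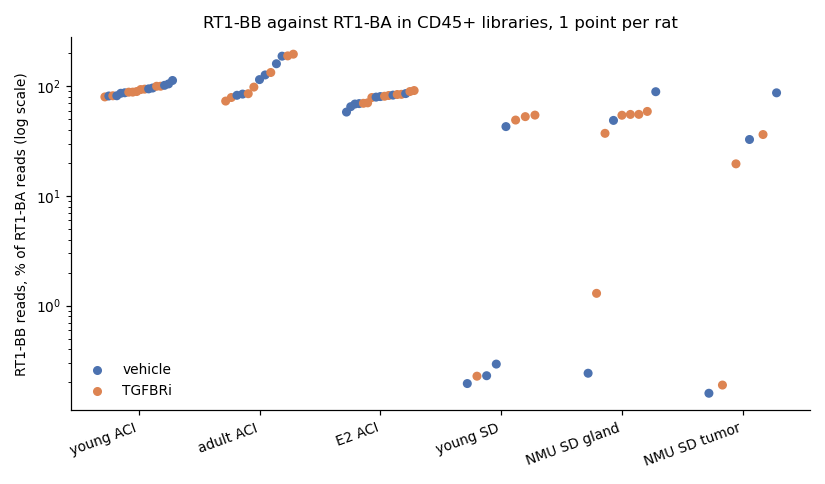
RT1-BB reads as a percentage of RT1-BA reads (log scale) in CD45+ libraries, 1 point per rat, by experiment and treatment. The inbred ACI rats lie between 58.2% and 196%, while 4 of 8 young SD rats, 2 of 9 NMU rats in the gland and 2 of 6 in the tumor lie below 2%.

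Parity did not move the class II genes past the test. Of the adult ACI rats, the parous against the virgin, 0 of 6 were called by limma, edgeR or DESeq2 in vehicle or TGFBRi rats in any of the 3 fractions, and 0 had an unadjusted p under 0.05. Over all genes, 0% were called in vehicle rats in each fraction, and in basal, luminal and CD45+ cells 12.1%, 0% and 0% in TGFBRi rats. In CD45+ cells, CD74 was at 44621 and 28797 CPM in the 2 parous vehicle rats and at 14944, 26345, 48766 and 45018 CPM in the 4 virgin vehicle rats. The lowest of these is the library with raised luminal markers. In TGFBRi rats it was at 22278 to 35729 CPM in 4 parous and 27094 to 49714 CPM in 3 virgin rats, and the groups overlapped. Luminal CD74 was at 82.4 ± 69.5 CPM in parous and 258 ± 362 CPM in virgin vehicle rats (n = 4 each), and the highest virgin value, 799 CPM, was that of N1N. The other 3 virgin vehicle rats were at 43.5, 67.004 and 122 CPM, within the range of 33.1 to 185 CPM of the parous ones.

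The effect of TGFBRi was also set against parity in these rats. Virgin rats had 0 genes of the 6 called by limma in luminal (0% of all genes called) and CD45+ cells (0.022%). In their basal cells 8.73% of all genes were called and 0 of the 6 by limma, with 3 at an unadjusted p under 0.05, 1 called by edgeR and 2 by DESeq2. RT1-DB1 was at 8.15 ± 4.49 CPM in TGFBRi against 80.6 ± 131 CPM in vehicle rats (n = 4 each, adjusted p = 0.0886), of which N1N was at 277 CPM and the other 3 at 12.5, 14.1 and 18.95 CPM, and basal CD74 was at 308 ± 131 against 742 ± 522 CPM (adjusted p = 0.151). The vehicle group holds N1N, whose basal library had summed luminal markers of 15457 CPM against 2558 to 4611 CPM in the others, and the part of this in the result was not tested. In parous rats 0 of 6 were called, beside 0.00744% of genes in basal, 0.0281% in luminal and 0% in CD45+ cells. The TGFBRi effect did not differ by parity past the test in basal (1.04% of genes called, 2 of the 6 at an unadjusted p under 0.05), luminal (0%) or CD45+ cells (0%).

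In NMU tumors, EPCAM+ cells carried more class II RNA than the luminal cells of the gland of the same 6 rats. CD74 was at 3824 (C2N), 385 (C2R) and 746 (C5R) CPM in the tumors of vehicle rats and at 500 (D2N), 2210 (D3R) and 1122 (D4R) CPM in those of TGFBRi rats. Gland luminal cells of the same rats had 117, 233, 183, 179, 118 and 1151 CPM, in the same order. The tumor value was the higher in 5 of 6 rats, with D4R the exception. CD74 was higher by 2.24 on the log2 scale (SE 0.60, adjusted p = 0.00655). The RT1.D chains had the smallest adjusted p-values, with RT1-DA at 519 ± 294 against 53.4 ± 39.2 CPM (3.33, SE 0.52, adjusted p = 8.13e-05) and RT1-DB1 at 635 ± 313 against 64.1 ± 40.4 CPM (3.22, SE 0.47, adjusted p = 4.73e-05). RT1-BA was at 247 ± 142 against 36.1 ± 28.9 CPM (2.78, adjusted p = 1.95e-04) and RT1-BB at 158 ± 136 against 9.76 ± 13.2 CPM (3.81, SE 1.22, adjusted p = 0.0188). CIITA had 1.58 ± 1.47 against 0.946 ± 0.772 CPM (0.32, adjusted p = 0.505).

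The count was thus 5 of 6 called higher, beside 36% of all genes tested, and the 2 sets of libraries did not overlap for RT1-DA alone among the 6, beside 15.3% of genes. Over all genes tested the median difference was itself 0.588 on the log2 scale, beside 3.00 over the 6 class II genes. edgeR called 3 and DESeq2 4 of the 6, and 3 were called without rat C2N or rat D3R. Trimmed mean scaling also gave 3. The fit did not pair the libraries of a rat, and 5 were called with the rat as a block. Leukocyte markers moved with these genes. The 8 of them summed to 493 to 1965 CPM in tumor EPCAM+ and 43.9 to 125 CPM in gland luminal libraries, and all 8 were called higher, as were all 8 T cell markers and 3 of 6 dendritic cell markers. T cell markers summed to 25.99 to 350 against 4.94 to 11.008 CPM, dendritic cell markers to 22.5 to 205 against 2.89 to 23.4 CPM and macrophage markers to 259 to 743 against 351 to 1815 CPM. Here and below, the macrophage list holds CD14, which is also on the luminal progenitor list. The part of leukocytes in the result was not tested. Accessory genes were higher in 3 of 3, co-stimulatory genes in 4 of 5, interferon γ genes in 4 of 8 and class I genes in 5 of 8.

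In tumor leukocytes, class II levels varied widely, and the call against gland leukocytes of the same 6 rats depended on the fit: 0 of 6 genes were called without and 1 with the rat as a block. CD74 was at 40312, 7968 and 28534 CPM in tumor CD45+ libraries of the vehicle rats C2N, C2R and C5R and at 14606, 7648 and 6413 CPM in those of the TGFBRi rats D2N, D3R and D4R. In gland CD45+ libraries of the same rats it was at 36080, 27628, 37934, 8773, 55713 and 51948 CPM. CD74 was thus lower in the tumor in 4 of 6 rats, with a difference of -1.20 on the log2 scale (SE 0.46, adjusted p = 0.0555). Without the block none of the 6 genes was called by limma, edgeR or DESeq2, with 1 at an unadjusted p under 0.05, beside 32.3% of all genes called in either direction. Among marker genes, 8 of 10 for macrophages were lower in the tumor while 5 of 8 for T cells and 7 of 8 for leukocytes in general were higher. The gland library of D2N is the one with raised basal markers, and without it and the other libraries that stood apart 4 of the 6 genes were called. Of the class I genes 5 of 8 were higher, among them B2M.

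Between TGFBRi and vehicle tumors no class II gene was called by limma, edgeR or DESeq2 and 0 had an unadjusted p under 0.05, beside 0% of all genes in either tumor fraction. CD74 was at 1277 ± 865 against 1652 ± 1890 CPM in EPCAM+ and at 9556 ± 4417 against 25604 ± 16370 CPM in CD45+ cells (n = 3 each), and both pairs of groups overlapped. In the gland, tumor-free TGFBRi, tumor-bearing TGFBRi and tumor-bearing vehicle rats of the NMU experiment were also compared, and each pair of comparisons shares a group. No class II gene was called in any of these 9 comparisons by limma, edgeR or DESeq2, and 0 had an unadjusted p under 0.05. The share of all genes called was 0% (tumor-free TGFBRi against vehicle), 0.015% (tumor-bearing TGFBRi against vehicle) and 0% (tumor-free against tumor-bearing TGFBRi) in CD45+ cells, and, in the same order, 0%, 1.31% and 5.58% in the basal and 0.948%, 0.212% and 0% in the luminal fraction. Gland CD45+ CD74 was at 33376 ± 871 CPM in tumor-free TGFBRi, 38811 ± 26082 CPM in tumor-bearing TGFBRi and 33881 ± 5494 CPM in vehicle rats. Basal CD74 stood at 2997 ± 4555 CPM in tumor-free TGFBRi rats, a mean set by the library of D1R at 8256 CPM beside 352 and 383 CPM in the other 2 rats. Luminal CD74 was at 260 ± 92.1, 483 ± 580 and 178 ± 58.5 CPM in the same order as for CD45+ cells.

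In the E2 experiment, no class II gene passed the test between luminal cells of the rats that received TGFBRi and E2 and stayed tumor-free and those of tumor-bearing vehicle rats with E2, although some did not overlap. CD74 was at 1292, 632, 1624 and 1302 CPM in the tumor-free TGFBRi rats and at 250, 153, 308 and 446 CPM in the vehicle rats, and these groups did not overlap. The difference was 1.97 on the log2 scale (SE 0.79, adjusted p = 0.721). RT1-BB was at 155, 74.7, 189 and 160 CPM against 23.3, 10.6, 33.2 and 46.7 CPM (2.34, SE 0.81, adjusted p = 0.549). RT1-BA was at 106.99 ± 35.1 against 30.9 ± 16.995 CPM (1.81), RT1-DB1 at 145 ± 53.004 against 38.8 ± 25.6 CPM (1.93), and RT1-DA overlapped. CIITA was at or near 0 in both groups, at 1.53, 0, 1.08 and 0 CPM against 0.510, 0, 0 and 3.16 CPM.

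Of the 6 genes 0 were called by limma, edgeR or DESeq2, 4 had an unadjusted p under 0.05 and 4 did not overlap. Over all genes, 0.0147% were called and 5.11% did not overlap in the direction of higher values. Leukocyte markers summed to 185 to 230 CPM in the tumor-free TGFBRi and 187 to 308 CPM in the vehicle rats. Dendritic cell markers summed to 0.617 to 8.25 against 1.53 to 58.03 CPM, T cell markers to 0.550 to 6.09 against 2.18 to 42.5 CPM and B cell markers to 0 to 0.826 against 0.0380 to 6.21 CPM, with MS4A1 at 0 in every library of both groups. Macrophage markers, with CD14 of the luminal progenitor list among them, summed to 592 to 721 against 721 to 886 CPM. The part of other cells in these values was not tested.

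The 2 tumor-bearing TGFBRi rats with E2 lay at opposite ends, with luminal CD74 at 97.8 CPM (A4-14) and 2345 CPM (A4-9) and RT1-BB at 12.4 and 305 CPM. Neither tumor-bearing TGFBRi against vehicle (0.00736% of genes called) nor tumor-free against tumor-bearing TGFBRi (0.0147%) called any of the 6 by limma, edgeR or DESeq2, and 0 had an unadjusted p under 0.05. These comparisons share groups with the one above.

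**Figure D5:**
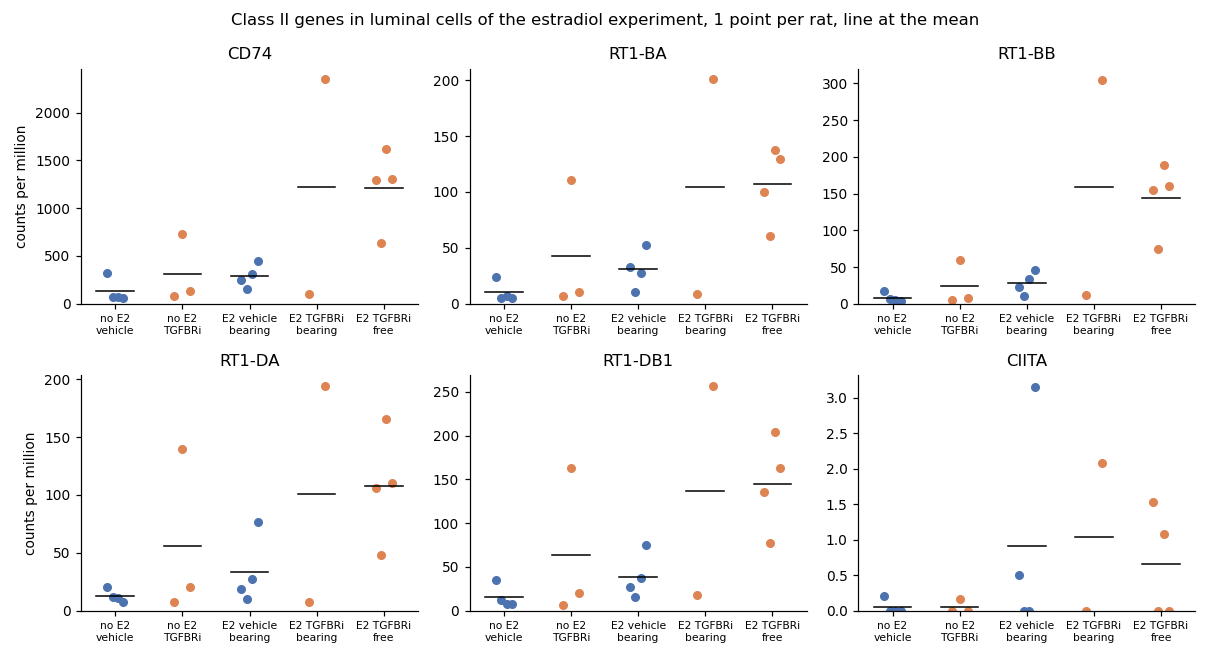
The 6 class II genes in luminal cells of the 5 groups of the E2 experiment, in CPM, 1 point per rat with a line at the mean. For CD74 the 4 tumor-free TGFBRi rats with E2 sit between 632 and 1624, above the 4 tumor-bearing vehicle rats with E2 (153 to 446), while the 2 tumor-bearing TGFBRi rats lie at 97.8 and 2345.

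Rats without E2 overlapped the rats with E2. Luminal CD74 was at 324, 74.7, 66.8 and 60.3 CPM in vehicle and at 82.6, 731 and 129 CPM in TGFBRi rats without E2. In each treatment 1 rat stood above the rest, A4-18 in vehicle and A4-20 in TGFBRi rats. Between treatments without E2, 0 of the 6 were called by limma, edgeR or DESeq2 and 0 had an unadjusted p under 0.05, beside 0.0147% of all genes. Against the TGFBRi rats without E2, RT1-BB was called higher in tumor-free TGFBRi rats with E2, at 144 ± 48.8 (n = 4) against 24.5 ± 30.9 CPM (n = 3, 3.38 on the log2 scale, SE 0.88, adjusted p = 0.0368). That was 1 of 6, beside 2.52% of all genes called higher, and edgeR and DESeq2 called 0. Leaving out A4-20 gave 4 of 6, and leaving out any other rat of the 2 groups gave 0. CD74 was at 1213 ± 417 against 314 ± 362 CPM (2.60, adjusted p = 0.0910). In vehicle rats with E2 against without, 0 of the 6 were called by limma, edgeR or DESeq2 and 2 had an unadjusted p under 0.05, beside 1.48% of genes. CD74 was at 289 ± 122 against 131 ± 129 CPM there (1.54, adjusted p = 0.387).

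Leukocytes of the E2 experiment did not show the luminal pattern. CD45+ CD74 was at 16540 ± 6712 CPM in tumor-free TGFBRi (n = 4), 13249 ± 6535 CPM in tumor-bearing TGFBRi (n = 2) and 17070 ± 3627 CPM in vehicle rats with E2 (n = 4), and at 23709 ± 3044 CPM in vehicle (n = 4) and 23790 ± 4095 CPM in TGFBRi rats without E2 (n = 3). None of the 6 was called by limma, edgeR or DESeq2 in the 6 comparisons. The share of all genes called was 0% for TGFBRi against vehicle without E2, 0% for tumor-free and 0.0223% for tumor-bearing TGFBRi against vehicle with E2, 0.0668% for tumor-free against tumor-bearing TGFBRi, 0.282% for E2 against none in vehicle and 5.58% for E2 against none in TGFBRi rats. CIITA had an unadjusted p under 0.05 in the last 2, at 16.8 ± 11.6 against 29.8 ± 8.12 CPM in vehicle and 15.5 ± 8.90 against 31.9 ± 2.97 CPM in TGFBRi rats (adjusted p = 0.396 and 0.197).

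Directly after treatment of young ACI rats, 1 of the 6 genes, RT1-BB, was called higher in basal cells of TGFBRi rats. CD74 was at 349, 289 and 133 CPM in TGFBRi and at 87.0, 72.4 and 57.7 CPM in vehicle rats, and the groups did not overlap (1.62 on the log2 scale, SE 0.54, adjusted p = 0.0884). RT1-BB was at 47.8, 24.7 and 17.6 CPM against 7.09, 2.08 and 3.96 CPM, which do not overlap either (2.69, SE 0.55, adjusted p = 0.0217). RT1-DB1 was at 43.8 ± 12.2 against 10.1 ± 4.88 CPM (2.06, adjusted p = 0.0704), RT1-DA at 38.9 ± 24.0 against 9.68 ± 5.02 CPM (1.77, adjusted p = 0.106) and CIITA at 0.330, 3.505 and 7.15 against 0.714, 0 and 1.45 CPM.

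The call of RT1-BB was 1 of 6, beside 2.51% of all genes called higher, and was lost without vehicle rat LD3R. edgeR called 0 of the 6 and DESeq2 4, and 3 of 6 did not overlap, beside 18.5% of genes. Over all genes tested the median difference was 0.298 on the log2 scale, beside 1.91 over the 6. Depth differed between the groups, at 15136358 (LD10R), 6562769 (LD7L) and 4194912 (LD7R) reads in TGFBRi and 12382292 to 18781674 in vehicle libraries. RT1-BB rested on 723, 162 and 74 reads in these TGFBRi libraries, against 39 to 129 in vehicle libraries. The part of depth was not tested. Markers of other cells differed too: dendritic cell markers summed to 32.4 to 37.0 CPM in TGFBRi and 2.40 to 7.53 CPM in vehicle libraries, T cell markers to 16.2 to 30.0 against 2.82 to 13.9 CPM, macrophage markers to 159 to 243 against 104.996 to 148 CPM and the 8 general leukocyte markers to 343 to 425 against 230 to 364 CPM. The part of leukocytes in the basal result was not tested.

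At days 7 and 14 no class II gene was called in basal or luminal cells. The labels disagree on the basal and luminal libraries of the day 7 vehicle rat LD2LR, which 1 field describes as treated, and without that rat 0 of 6 were called as well. Basal CD74 was at 100 ± 15.6 against 91.6 ± 32.4 CPM at day 7 and at 193 ± 105.86 against 150 ± 50.5 CPM at day 14, with 0 of 6 called and 0 at an unadjusted p under 0.05, beside 0.00639% and 0% of genes. The change of the treatment effect from day 0 to day 14 called 0 of 6 by limma, edgeR or DESeq2 (RT1-BB adjusted p = 0.283; 1 at an unadjusted p under 0.05; 0.00639% of genes), so days 0 and 14 were not shown to differ. Luminal cells gave 0 of 6 at days 0, 7 and 14 and for the change from day 0 to day 14, with 0 at an unadjusted p under 0.05 and 0 by edgeR or DESeq2, beside 1.01%, 0%, 0% and 0.00659% of genes. Luminal CD74 was at 56.2 ± 36.1 against 66.9 ± 19.6 CPM at day 0.

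In CD45+ cells of the young ACI rats the values at day 0 went the other way. CD74 was at 30980 to 34860 CPM in TGFBRi and 31737 to 76107 CPM in vehicle rats, which overlap. RT1-BB was at 3868 ± 28.8 against 7321 ± 3777 CPM (-1.002 on the log2 scale, adjusted p = 0.128, n = 3 each). Here limma called 0 of 6, edgeR 0 and DESeq2 1, with 5 at an unadjusted p under 0.05, beside 2.85% of genes. The title of the CD45+ library of day 7 TGFBRi rat LD9R names day 9 where its other labels give day 7, and leaving that rat out also gave 0 of 6. At days 7 and 14, 0 of 6 were called by limma, edgeR or DESeq2, with 1 at an unadjusted p under 0.05 at each, beside 0% and 0% of genes. That gene was CIITA both times, at 41.9 ± 9.99 against 18.7 ± 3.67 CPM at day 7 and 29.8 ± 14.2 against 81.4 ± 45.6 CPM at day 14, in opposite directions. The change from day 0 to day 14 called 0 of 6, with 4 at an unadjusted p under 0.05, beside 0.19% of genes.

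In young SD rats the luminal values were lower under TGFBRi, but no gene of the table passed the test. CD74 was at 96.9, 100.84, 83.006 and 179 CPM in TGFBRi and at 339, 245, 306 and 407 CPM in vehicle luminal cells. The groups did not overlap, with a difference of -1.66 on the log2 scale (SE 0.36, adjusted p = 1.00). RT1-DA was at 9.35 ± 4.69 against 47.8 ± 46.5 CPM, with the highest vehicle value, 116 CPM, in the library of C6N. Of the 6 genes 0 were called by limma, edgeR or DESeq2, 4 had an unadjusted p under 0.05 and 1 did not overlap, beside 0% of genes called and 0.54% that did not overlap in this direction. Leukocyte markers summed to 44.3 to 90.5 CPM in TGFBRi and 39.03 to 89.8 CPM in vehicle luminal libraries, and B cell markers to 0.0779 to 1.18 against 1.24 to 3.28 CPM. Dendritic cell markers summed to 0 to 5.14 against 4.19 to 7.93 CPM, T cell markers to 3.27 to 8.84 against 5.05 to 12.6 CPM and macrophage markers to 1187 to 1754 against 1624 to 1800 CPM. CD14, on both the macrophage and the luminal progenitor lists, was called lower in CD45+ than in luminal cells of these rats. The macrophage sum in luminal libraries is therefore not a measure of macrophages alone. The library of C6N also held summed basal markers of 3198 CPM, against 330 to 973 CPM in the other 7. The part of these markers in the result was not tested. Basal and CD45+ cells of these rats gave 0 of 6 called by the 3 tools, with 1 and 0 at an unadjusted p under 0.05, beside 0% and 0% of genes. Basal CD74 was at 60.5 ± 19.1 against 65.7 ± 18.3 CPM and CD45+ CD74 at 22721 ± 5262 against 21139 ± 8517 CPM (n = 4 each).

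The single-cell tables, tested on UMIs summed per rat and class with edgeR's quasi-likelihood test (called at an adjusted p of 0.1), gave called changes in basal-like cells of both sorted tables (higher) and in mature luminal-like cells of the sorted ACI and whole SD glands (lower), with 1 or 2 genes called in luminal progenitor-like cells of the sorted SD glands and in B-like and dendritic-like cells of the whole glands. In sorted SD glands, basal-like CD74 was at 0.245 to 0.617 UMIs per 10000 in 6 TGFBRi rats and 0.0752 to 0.155 in 3 vehicle rats (2.15 on the log2 scale, adjusted p = 0.00681). RT1-BA rose by 2.88 (adjusted p = 0.0103), RT1-BB by 2.95 (0.0309), RT1-DA by 2.74 (0.0180) and RT1-DB1 by 2.10 (0.0183), each an adjusted p. CIITA, at 0.000822 against 0.00144 UMIs per 10000, was not called. Thus 5 of 6 were called higher, beside 15.3% of genes, and 2 without vehicle rat SD3. The summed leukocyte markers were at 0.419 to 0.764 in TGFBRi and 0.636 to 0.968 in vehicle rats. Single markers of other cells changed as well. LAPTM5 was called higher among 5 leukocyte markers tested (median 0.79 on the log2 scale), CD8A and LCK among 4 of T cells, CD68 among 8 of macrophages (median 1.12) and EGFL7 and EMCN among 4 of endothelium (median 2.86). BANK1, the 1 B cell marker tested, was called lower (-1.41), and the 1 dendritic cell marker tested was not called. The luminal markers KRT8, KRT18, EPCAM and CLDN4 were also called higher (4 of 5, median 1.04), and of 7 basal markers KRT14, TP63, OXTR and MYLK were called lower and KRT5, KRT17 and ACTA2 higher. Their part in the result was not tested. Most vehicle cells of this class were in clusters 6 and 18 and most TGFBRi cells in clusters 2, 3, 4 and 10. By library, counting those with at least 20 cells of a cluster, CD74 was at 0.0275 to 0.0781 in cluster 6 and 0.232 to 0.362 in cluster 18 of the vehicle rats. In TGFBRi rats it was at 0.206 to 0.270 in cluster 2, 0.0865 to 0.480 in cluster 3, 0.0746 to 0.261 in cluster 4 and 0.418 to 2.89 in cluster 10. Of these, clusters 2, 4 and 10 held no such vehicle library, and 3390 of the cells of cluster 2 were those of SD14, beside 34 of SD9. In the clusters with libraries of both groups, the vehicle rats were at 0.0558 to 0.109 in cluster 3, and the TGFBRi rats SD10 and SD9 were at 0 and 0.224 in cluster 6 and at 0.410 and 0.345 in cluster 18. Class I genes were higher in 6 of 10 in the same cells (B2M, TAP1, TAPBP, PSMB9, PSMB10 and CALR).

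In sorted ACI glands, basal-like CD74 was at 0.108, 0.0740 and 0.0749 UMIs per 10000 in TGFBRi and 0.0570, 0.0590 and 0.0314 in vehicle rats (1.01, adjusted p = 0.00856). RT1-DB1 was also called higher, at 0.0184 ± 0.00611 against 0.0115 ± 0.00272 (0.94, adjusted p = 0.0670), making 2 of 5 tested, beside 16.3% of genes. Markers of other cells were called higher too: EPCAM and CLDN4 of luminal cells, PRLR, AREG and CITED1 of mature luminal cells, ZBTB46, the 1 dendritic cell marker tested, COL3A1 of fibroblasts and KDR of endothelium, while 0 of 5 leukocyte markers were called. KRT19 of the luminal and PGR of the mature luminal markers were called lower. Of the basal markers KRT14, TP63 and OXTR were called lower and KRT17 higher. Their part in the result was not tested. Here too the groups' cells sat in different clusters, most vehicle cells in clusters 0, 2 and 9 and most TGFBRi cells in clusters 1, 3 and 11. CD74 by library was at 0.177 to 0.393 in cluster 11 of the TGFBRi rats, but at 0.0109 to 0.0295 in cluster 1 and 0.0411 to 0.0696 in cluster 3. In vehicle rats it was at 0.0143 to 0.0441 in cluster 0, 0.0828 to 0.104 in cluster 2 and 0.0203 to 0.0308 in cluster 9. Where a cluster held few cells of the other group, the vehicle rat ACI8 was at 0.0504 in cluster 1 and 0.0953 in cluster 3, above every TGFBRi library there, and at 0 in cluster 11. The TGFBRi rats were at 0, 0 and 1.77 in cluster 0, and ACI12 was at 0 in cluster 2. These levels stand for few molecules, and without cells that held a leukocyte marker UMI 0 of 5 were called and the difference of RT1-DB1 was -0.20. In whole SD glands basal-like cells gave 0 of 6 by edgeR or DESeq2, with 0 at an unadjusted p under 0.05, beside 47.5% of genes. Their CD74 was at 0.826 ± 0.429 against 1.01 ± 0.436 UMIs per 10000.

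Mature luminal-like cells had less class II RNA under TGFBRi in the sorted ACI and whole SD glands. In the sorted ACI rats, CD74 was at 0.0772, 0.0652 and 0.0444 UMIs per 10000 against 0.206, 0.0774 and 0.307 (-1.39 on the log2 scale, adjusted p = 0.0215). The highest TGFBRi and the lowest vehicle value were nearly equal. RT1-BB fell by 2.24 (adjusted p = 0.0285) and RT1-BA fell by 1.67 (adjusted p = 0.0581), so 3 of 5 were called lower, beside 13% of genes. The cells lay in 3 clusters in unequal numbers. In cluster 5 CD74 was at 0.1001 to 0.528 in vehicle and 0.00856 to 0.0452 in TGFBRi rats, and in cluster 6 the groups overlapped, at 0.0719 to 0.170 against 0.0307 to 0.159. In cluster 7 TGFBRi rats were at 0.0685 to 0.0795 and vehicle rats at 1.10 (ACI7, 37 cells), 0.0426 (ACI8, 117 cells) and 0.179 (ACI9, 30 cells). Leukocyte markers were lower under TGFBRi too, at 0.869 to 1.06 in TGFBRi and 1.09 to 1.25 in vehicle rats. Without cells that held such a UMI 0 of 5 class II genes were called. Called lower too were ESR1, PGR and FOXA1 among 7 mature luminal markers, CORO1A among 3 of leukocytes and KIT of luminal progenitors. So were CPA3 of mast cells and PROX1 of lymphatic endothelium. KRT8 and KRT18 of luminal cells, CSN3 of luminal progenitors and DES of mural cells were called higher. The part of these markers was not tested. In the whole SD glands, CD74 was at 0.676 ± 0.375 in 6 TGFBRi rats and 2.12 (veh1), 0.408 (veh2) and 4.69 (veh4) in the vehicle rats (-1.89, adjusted p = 0.0277), and the groups overlapped. All 5 genes tested were called lower there, beside 15.7% of genes, with RT1-DB1 at 0.126 ± 0.0683 against 0.431 ± 0.279 (-1.84, adjusted p = 0.0108). Without veh1 3 of 5 were called and without veh4 2. Leukocyte markers were at 0.351 to 0.533 against 0.467 to 0.561, with PTPRC called lower and LCP1 higher among the 8. Other markers moved with these genes: ALDH1A3, CD14 and LCN2 of luminal progenitors, CD14 and LYZ2 of macrophages and S100A8 and S100A9 of neutrophils (median -4.36 on the log2 scale) were called lower, as were KRT8, KRT19, EPCAM and CLDN4 among 5 general luminal markers (median -0.43). Of the mature luminal markers ESR1, PRLR and CITED1 were called higher and PGR lower. Their part in the result was not tested. In the sorted SD rats the direction was opposite and not called: mature luminal-like CD74 was at 0.618 ± 0.496 against 0.260 ± 0.172 (1.52, adjusted p = 0.109), with 0 of 6 called by edgeR, 3 by DESeq2 and 1 at an unadjusted p under 0.05, beside 30.2% of genes. There most vehicle cells were in clusters 11 and 22 and most TGFBRi cells in clusters 8, 12, 13, 14, 17 and 19.

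In luminal progenitor-like cells, 2 genes were called in the sorted SD glands and 0 in the other 2 tables, and the calls changed with the rats included. In sorted SD glands RT1-BB was at 0.115 ± 0.156 in TGFBRi and 0.0219 ± 0.00412 UMIs per 10000 in vehicle rats (2.68, adjusted p = 0.0864) and RT1-DA at 0.176 ± 0.216 against 0.0467 ± 0.00858 (2.19, adjusted p = 0.0844). These were 2 of 6, beside 14.8% of genes called higher, and the groups overlapped. Called higher with them were COL1A1, COL3A1 and DCN among 4 fibroblast markers (median 3.25 on the log2 scale), all 4 markers of cycling cells (median 2.83) and CD68 among 6 of macrophages, while 0 of 5 leukocyte markers were called. Their part in the result was not tested. Most vehicle cells of this class were in cluster 0 and most TGFBRi cells in clusters 1, 5, 7 and 9. CD74 was at 1.10 ± 1.63 against 0.298 ± 0.144 (2.17, adjusted p = 0.122), with a mean that SD12 sets. Leaving out SD11, SD12, SD13 or any 1 vehicle rat left 0 of 6 called, leaving out SD10 left 4, and leaving out SD14 or SD9 left 5. In sorted ACI glands 0 of 5 were called by edgeR, with 0 at an unadjusted p under 0.05 and 0 by DESeq2 (30.7% of genes), and CD74 was at 0.0586 ± 0.0289 against 0.0840 ± 0.0364. In whole SD glands 0 of 6 were called, with 0 at an unadjusted p under 0.05 and 0 by DESeq2 (27.4% of genes), and CD74 was at 2.17 ± 2.88 against 1.19 ± 0.175, where ly4 sets the TGFBRi mean.

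Within the leukocyte classes of whole glands, 1 gene passed the test in B-like and 1 in dendritic-like cells. In B-like cells CIITA rose, at 0.355 to 0.594 UMIs per 10000 in 6 TGFBRi and 0.117 to 0.231 in 3 vehicle rats (1.24 on the log2 scale, adjusted p = 0.00182). It was the only one of the 6 called in these cells, beside 8.9% of genes called higher, while CD74 was at 263 ± 9.97 against 245 ± 41.7. Of the B cell markers 3 of 5 were called higher in them and of the general leukocyte markers 5 of 8, while all 5 general luminal markers were called lower (median -1.12), and their part in the result was not tested. In dendritic-like cells CD74 fell, from 376 to 501 in vehicle to 344 to 382 in TGFBRi rats (-0.59, adjusted p = 0.0664), which overlap at 1 vehicle rat. That was 1 of 6 by edgeR and 3 by DESeq2, beside 3.5% of genes called lower; without veh1 it was 5 of 6, and without veh2 or any 1 TGFBRi rat 0. In the same cells ALDH1A3, EPCAM, KRT17 and SDC1, markers of epithelial and plasma cells, were called lower and FLT3 of dendritic cells higher, and their part in the result was not tested. Macrophage-like cells gave 0 of 6 by edgeR or DESeq2, with CIITA at 0.0763 ± 0.0411 against 0.0209 ± 0.00292 (1.54, adjusted p = 0.178) the 1 gene at an unadjusted p under 0.05, beside 3.5% of genes. T-like cells gave 0 of 5 by edgeR or DESeq2 with 0 at an unadjusted p under 0.05 (7.99% of genes). NK-like cells gave 0 of 6 by both tools with 2 at an unadjusted p under 0.05 (2.52% of genes), and 5 of 6 without veh4. In NK-like cells CD74 ranged from 0.967 to 25.5 among the vehicle rats alone.

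Across libraries, the genes whose levels followed the class II genes most closely differed between gates. Over the 68 luminal libraries and 8232 genes, Pearson's r with the mean of the 6 genes, on log2(CPM + 1) values centred within each experiment, was highest for CCND2 (0.70), PCOLCE (0.65), LYZ2 (0.62) and BLNK (0.61), of which LYZ2 is a lysozyme of macrophages. PTPRC-positive cells gave another list: over 65 CD45+ libraries and 8548 genes r was highest for SMAP2 (0.64), NAAA (0.64), NCKAP1L (0.63), ANKRD33B (0.62) and SNX8 (0.62). Libraries share experiments, treatments and depth, and these values are a description with no test.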

How the data were processed

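Bulk libraries were made with a low-input SMARTer kit that does not mark strand. The authors aligned reads with STAR 2.5.1b to rn6, counted them per gene with HTSeq, and deposited normalized values, a signal of read counts divided by DESeq2 1.30.1 size factors. All 2526550 values above 0 in the 202 libraries came out as whole reads within 0.001, and counts per 1000000 counts (CPM) were computed from them. In the 85 libraries of the adult ACI and E2 experiments 23.077% to 42.504% of reads sat on rows that name no gene, and these were left out. Groups were compared with limma 3.58.1 (trend, robust) on log2(deposited value + 1) within a gate, or log2(CPM + 1) between gates, over genes with a sum of at least 10, with Benjamini-Hochberg adjustment over all genes and calls at 0.05. Parts of 1 rat were averaged. edgeR 4.0.16 and DESeq2 1.42.0 on the recovered reads were alternatives.

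For single cells the authors deposited UMI counts per gene and cell, from Cell Ranger 4.0.0 (sorted, 10x 3') or 7.0.0 (whole glands, 10x 5', introns off) and Seurat, keeping cells with at least 100 genes and at most 15% mitochondrial reads. Cells under 500 UMIs were left out here (1 cell), the rest were clustered with igraph 0.11.9 and leidenalg 0.10.2 without the class II genes, and clusters were named from fixed markers; 16.9% of TGFBRi and 18.6% of vehicle cells stayed unnamed in whole glands, 7.41% and 0.473% in sorted SD and 2.49% and 1.36% in sorted ACI glands, and entered no class. No doublet caller was run. UMIs were summed per rat and class with at least 10 cells and tested with edgeR's quasi-likelihood test (TMM), called at 0.1. The limma fit within a gate and the edgeR fits were also run on simulated data. The DESeq2, rat block and between-gate fits were not.

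The class II genes and the other lists were named by symbol, with earlier results of these data known, and each comparison gives how many members were called, with values for some. Libraries are separate rats by their labels; p-values cover the spread between these rats. Alternatives were other tools, pseudocounts and filters, leaving out each rat, a rat block, thinning, and, added after the data were seen, leaving out the libraries that stood apart. Some genes of the other lists are not reported here. The paper gives a limit on multiple alignments in STAR and unstranded counting in HTSeq, but does not state how reads shared by near-identical genes were assigned.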

Additional observations from a re-analysis of the deposited data

Results flagged for a closer look

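In 186 groups of 4 to 10 rats, a class II gene was screened for 1 rat far from the rest. Such a rat was found in 40 groups. The cut-off gives about 1 in 20 groups by chance only where values are normally distributed. It was applied to untransformed levels in small groups, and apart from ly2 in dendritic-like CD74 each such rat stood at the high end. The chance rate for these values is therefore unknown, and no excess over chance can be read from the 40. The groups are not independent, since the same rat can stand apart in several genes. No explanation was tested for any of them.

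Virgin vehicle rat N1N of the adult experiment stood above the other 3 rats of its group in both epithelial gates. Its luminal library held CD74 at 799 CPM, RT1-BA at 112, RT1-BB at 107.41, RT1-DA at 170 and RT1-DB1 at 186 CPM. In its basal library RT1-BA was at 157, RT1-BB at 212, RT1-DA at 302 and RT1-DB1 at 277 CPM. Dendritic cell markers summed to 37.9 CPM in that luminal library. In the same experiment CIITA was at 3.51 CPM in basal cells of virgin TGFBRi rat N2N, RT1-BA at 27.5 CPM in basal and RT1-BB at 10.7 CPM in luminal cells of parous vehicle rat P1N, and RT1-BB at 6180 CPM in CD45+ cells of parous TGFBRi rat P2R.

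Luminal progenitor-like cells of the sorted SD rat SD12 stood apart in CD74 (4.36 UMIs per 10000), RT1-BA (0.616), RT1-BB (0.421), RT1-DA (0.59996) and RT1-DB1 (0.928), and its mature luminal-like cells in CD74 (1.54). Basal-like cells of SD13 did so in RT1-BA (0.113), RT1-BB (0.148), RT1-DA (0.261) and RT1-DB1 (0.175), and those of SD10 in CIITA (0.00316). In whole glands ly4 stood apart in luminal progenitor-like CD74 (7.95) and RT1-BA (0.981) and in dendritic-like CIITA (0.561), ly1 in basal-like RT1-BA (0.342) and RT1-BB (0.238), and ly2, at the low end, in dendritic-like CD74 (344).

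Vehicle rat A4-18 without E2 stood above its group in luminal CD74 (324 CPM), RT1-BA (23.8), RT1-BB (16.9) and CIITA (0.201, where the other 3 rats had 0), and vehicle rat A4-37 with E2 in luminal CIITA (3.16). Among young SD rats, vehicle rat C7R held RT1-BB at 1272 CPM in CD45+ cells, where the other 3 vehicle rats were between 5.60 and 9.14 CPM, and at 1.82 CPM in basal cells, where they were at 0.057 or 0. RT1-DA was at 12.3 CPM in basal cells of C7N and at 16.3 CPM in luminal cells of D8R, and RT1-DB1 at 35.5 CPM in luminal cells of D8N.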

How the results depend on the processing

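Over 74 comparisons, 1003 alternative counts of called class II genes were made, of which 937 were equal to the reported count or within 1.5 times, and 57 comparisons had every alternative within that range, among them leukocytes against luminal cells in all 5 experiments, with 6 of 6 under each. Only 15 of the 74 comparisons had any class II gene called, so most of the 57 stood at 0 under every setting. Apart from leukocytes against luminal cells, B-like cells were the only comparison with a called gene that stayed within that range throughout. The totals are thus filled mainly by counts of 0 and by the leukocyte comparisons. For the single called genes, 817 of 888 alternative values kept direction and call, 70 kept the direction only and 1 turned. The causes of the changes below were not tested.

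With edgeR on reads, the count went from 1 to 0 for E2 against none in TGFBRi luminal cells, from 5 to 3 for tumor EPCAM+ against luminal cells, from 0 to 1 in adult virgin basal cells and from 1 to 0 in young ACI basal cells at day 0. With DESeq2 these 4 were 0, 4, 2 and 4, young ACI CD45+ cells at day 0 went from 0 to 1, sorted ACI basal-like from 2 to 1 and mature luminal-like from 3 to 1, sorted SD mature luminal-like from 0 to 3 and dendritic-like from 1 to 3. Trimmed mean scaling gave 3 for tumor EPCAM+ cells, as did leaving out the libraries that stood apart, which gave 4 in place of 0 for tumor CD45+ cells. Fits on the compared groups alone gave 1 in place of 0 for tumor-free TGFBRi against vehicle with E2 and 3 for young ACI basal cells at day 0, where CPM also gave 3. Without a filter, sorted ACI mature luminal-like cells gave 5 and NK-like cells 5 in place of 0. Without cells holding a leukocyte marker UMI, sorted ACI basal-like and mature luminal-like cells gave 0 and 0, whole gland mature luminal-like cells 3, and RT1-DB1 in sorted ACI basal-like cells was -0.20.

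With the rat as a replicate block, tumor against gland CD45+ cells gave 1 in place of 0, and the block changed no other count: tumor EPCAM+ cells gave 5 and leukocytes against luminal cells 6 in each experiment. The block pairs gates of 1 rat; numbers shared between treatments name different rats and were not paired.

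Leaving out 1 rat at a time gave ranges of 0 to 4 for E2 against none in TGFBRi luminal cells (4 without A4-20), 0 to 4 for tumor CD45+ (4 without D2N), 3 to 5 for tumor EPCAM+ (3 without C2N or D3R), 0 to 3 and 0 to 1 for young ACI CD45+ cells at day 0 and its change to day 14 (both without LD3L), and 0 to 1 for young ACI basal cells at day 0 (0 without LD3R). In single cells they were 1 to 3 (basal-like, 1 without ACI12, ACI16 or ACI9), 0 to 1 (luminal progenitor-like, without ACI7) and 2 to 5 (mature luminal-like, 5 without ACI7) in sorted ACI, 2 to 5, 0 to 5 and 0 to 2 (2 without SD11, SD9 or SD1) in sorted SD, in the same order, and 0 to 5 in dendritic-like, 0 to 5 in NK-like (5 without veh4) and 2 to 5 in whole gland mature luminal-like cells.

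Thinned to 1000 UMIs, the median share of cells with a CD74 UMI went from 3.07% to 0.378%, 3.42% to 0.573% and 4.22% to 0.586% in sorted ACI basal-like, luminal progenitor-like and mature luminal-like cells, from 7.73% to 1.89% and 11.1% to 2.56% in sorted SD basal-like and mature luminal-like cells, and from 18.8% to 5.05% and 18.6% to 3.67% in those of whole glands. CIITA, at under 1 CPM in most luminal libraries, and class II genes in sorted epithelial cells rest on few reads or UMIs, so differences there were near the limit of this depth.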

Other observations

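RT1-DB2, listed beside RT1-DB1 as a further β chain gene of the RT1.D region, differed between the bulk tables far more than RT1-DB1 did. In CD45+ libraries RT1-DB2 ranged from 130 to 365 CPM in young ACI, from 102.6 to 207 CPM in young SD and from 90.8 to 320 CPM in NMU rats, but from 2.40 to 7.52 CPM in adult ACI and from 0.675 to 7.23 CPM in E2 rats. RT1-DB1 ranged from 4991 to 13943 CPM in young ACI, from 3985 to 6657 CPM in young SD, from 3171 to 13695 CPM in NMU, from 3932 to 9984 CPM in adult ACI and from 1842 to 8264 CPM in E2 rats. The adult ACI and E2 tables are also those in which 23.077% to 42.504% of reads sat on rows that name no gene. The other 3 have no reads on such rows as deposited, which does not show that all their reads fell on genes. The tables were normalized separately, so these levels are set side by side with no test, and the cause was not tested.

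In luminal libraries, IRF1, a transcription factor of the interferon γ response, had r of -0.22 with the class II genes across 68 libraries, while the interferon-inducible genes UBD and GBP2 had 0.54 and 0.24 and the macrophage genes C1QA and LYZ2 0.59 and 0.62. In CD45+ libraries r was 0.35 for CSF1R, 0.33 for PTPRC, 0.04 for the B cell gene MS4A1 and -0.09 for the T cell gene CD3E across 65 libraries. These are descriptions over libraries that share experiments and treatments.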
